A study of Mus musculus with 4 samples.

Results

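Lcn2, Saa3, Saa1, Saa2, Hp and Chil1 encode secreted acute-phase and defence proteins. These 6 genes were taken by symbol from the 31054 features measured in 4 single-cell libraries made from the lungs of aged mice, and each symbol matched 1 feature. They were chosen by measured values of the same libraries, in which they were higher in alveolar fibroblasts and Lcn2 was lower in myeloid cells after treatment. Those differences are therefore given as a description, with no test. The lungs came from male C57BL/6 mice that were 19 months old when dosing began and received for 1 month either BPTES, a small-molecule inhibitor of the glutaminase GLS1, or DMSO, its vehicle. Each group had 2 libraries, and the question was what the inhibitor does to gene expression across the cell types of the aged lung. After Liberase digestion for 1 hour, 20000 cells without surface CD45, the leukocyte marker, and 9000 cells with it were mixed for each library, so the sort and not the tissue set the balance of leukocytes to other cells. Nothing in the labels says that the libraries of a group came from separate mice, and p-values then measure only the spread between these samples, which may be technical.

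The acute-phase response is a change in secreted proteins after infection or injury, in which interleukin-6 acts through STAT3 and interleukin-1 and TNF act through NF-kB, with C/EBP proteins as partners. Lcn2 encodes lipocalin-2, which binds bacterial siderophores and so withholds iron, and is stored in neutrophil granules and secreted by epithelia. Saa1, Saa2 and Saa3 encode serum amyloid A proteins, lipid-carrying proteins of which Saa1 and Saa2 are made mainly by the liver and Saa3 mainly outside it. Hp encodes haptoglobin, which binds free haemoglobin, and Chil1 encodes a chitinase-like lectin that binds chitin without cutting it.

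After filtering, 14407 to 18860 cells remained in a library, with medians of 13924.5 to 15767 UMIs (unique molecular identifiers, each counting 1 captured RNA molecule) per cell. Of 37 clusters, 28 took a name from lung marker genes and formed 24 classes, written with "-like" because the names rest on RNA. The other 9 clusters held 15779 cells (24.7%) and stayed unnamed. Unnamed clusters 5 (2781 cells) and 6 (2626 cells) scored highest for the alveolar fibroblast markers, but their leading genes did not bear the name out. Cluster 5 was led by Ppp1r3a, Brinp1, Timp1, Mgp, Mfap5 and Mmp3, and cluster 6 had 0.224 of the median UMIs per cell of all kept cells. All 6 genes were among the variable genes used for clustering. Pairs of libraries shared 57 to 90 barcodes among kept cells. DMSO replicate 1 stood apart, with 228 mesothelial-like cells against 5, 19 and 68 in the other libraries and with the least Sftpc, an alveolar type 2 gene, in most groups of cells.

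All positions are those of mm10, the build in the submitters' processing notes, with gene models from GENCODE M21. Lcn2 (ENSMUSG00000026822) lies on the minus strand at chr2:32384633-32388252. Saa3 (ENSMUSG00000040026; chr7:46711998-46715700, minus strand), Saa1 (ENSMUSG00000074115; chr7:46740497-46742980, minus strand) and Saa2 (ENSMUSG00000057465; chr7:46751790-46754313, plus strand) are neighbours on chromosome 7. Hp (ENSMUSG00000031722) lies at chr8:109575128-109579172 on the minus strand, and Chil1 (ENSMUSG00000064246) at chr1:134182176-134190181 on the plus strand. The longest coding transcripts of Saa1 and Saa2 were 87.3% identical, and the last 200 bases, where 3' libraries are read, were 90.1% identical. Counting could split reads between these copies, so the Saa1 and Saa2 counts are uncertain. Saa3 was 43.1% identical to each of Saa1 and Saa2 over the same 200 bases.

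Because 4 of the genes share 1 motif upstream, the RefSeq promoter windows (GRCm38.p6) are shown for the serum amyloid A genes, without the parts that lie in annotated exons. For Lcn2 only the 28 bases around its match are shown, since they lie in an annotated exon of another transcript. Capitals mark matches to the C/EBP motif TTGCNNAA on either strand.
Lcn2, chr2:32387938-32387965, minus strand: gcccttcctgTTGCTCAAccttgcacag
Saa3, chr7:46715701-46715926, minus strand: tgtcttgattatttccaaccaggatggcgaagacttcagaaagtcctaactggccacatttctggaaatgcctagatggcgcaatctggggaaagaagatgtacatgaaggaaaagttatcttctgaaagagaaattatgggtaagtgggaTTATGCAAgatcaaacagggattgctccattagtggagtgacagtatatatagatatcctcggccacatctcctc
Saa1, chr7:46742981-46743230, minus strand: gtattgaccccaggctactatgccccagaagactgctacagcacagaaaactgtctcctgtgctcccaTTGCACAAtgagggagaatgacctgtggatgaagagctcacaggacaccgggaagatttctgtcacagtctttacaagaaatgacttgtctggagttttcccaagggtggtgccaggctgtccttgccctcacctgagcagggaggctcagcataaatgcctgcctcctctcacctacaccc
Saa2, chr7:46751583-46751789, plus strand: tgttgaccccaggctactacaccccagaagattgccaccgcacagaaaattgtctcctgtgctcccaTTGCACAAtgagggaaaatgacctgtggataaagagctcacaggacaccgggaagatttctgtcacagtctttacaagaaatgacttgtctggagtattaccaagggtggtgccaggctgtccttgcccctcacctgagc

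The match began 216 bases before the start site in Lcn2, 99 in Saa3, 182 in Saa1 and 183 in Saa2. A C/EBP match was present in 10.8% of 32851 promoter windows of 300 bases. The 250 bases before the start site were 94.8% identical between Saa1 and Saa2, against 48.5% between Saa1 and Saa3. A match to the NF-kB motif was found in the Chil1 window, 179 bases before the start site, and in 8.46% of all windows. The STAT motif TTCNNNGAA, present in 8.30% of windows, was not found in the windows of these 5 genes. RefSeq windows were matched for 5 of the 6 genes, all but Hp.

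Lcn2 transcripts came mainly from alveolar type 2 (AT2)-like cells, the surfactant-making epithelium, and from neutrophil-like cells. AT2-like cells held 80.2% and 61.5% of a library's Lcn2 UMIs in BPTES replicates 1 and 2, and 24.6% and 41.2% in DMSO replicates 1 and 2. Neutrophil-like cells held 8.45% and 15.1% in BPTES and 48.1% and 46.4% in DMSO. The number of AT2-like cells recovered was 403 and 415 in BPTES and 124 and 247 in DMSO, so the shares moved with cell recovery as well as with the level per cell. In AT2-like cells, Lcn2 stood at 1755 and 1220 CPM (counts per 1000000 summed UMIs of the class) in BPTES and 730 and 924 CPM in DMSO. The groups did not overlap, an order with BPTES above that 16.1% of the 13085 genes fitted in this class shared. Between 92.7% and 98.0% of AT2-like cells held at least 1 Lcn2 UMI.

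Lymphatic endothelial-like cells were the next class, with 221, 378, 380 and 322 CPM of Lcn2 in the same order of libraries (BPTES replicates 1 and 2, then DMSO replicates 1 and 2, as throughout). Their groups overlapped. In the 20 named classes that had 20 or more cells per library, the mean over 4 libraries was highest in AT2-like cells (1157 CPM), then neutrophil-like (654), lymphatic endothelial-like (325), adventitial fibroblast-like (24.7), classical monocyte-like (16.0) and alveolar fibroblast-like cells (12.5). AT2-like and neutrophil-like cells overlapped in range, as did neutrophil-like and lymphatic endothelial-like cells, since neutrophil-like cells ranged from 378 to 944 CPM.

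**Figure D1:**
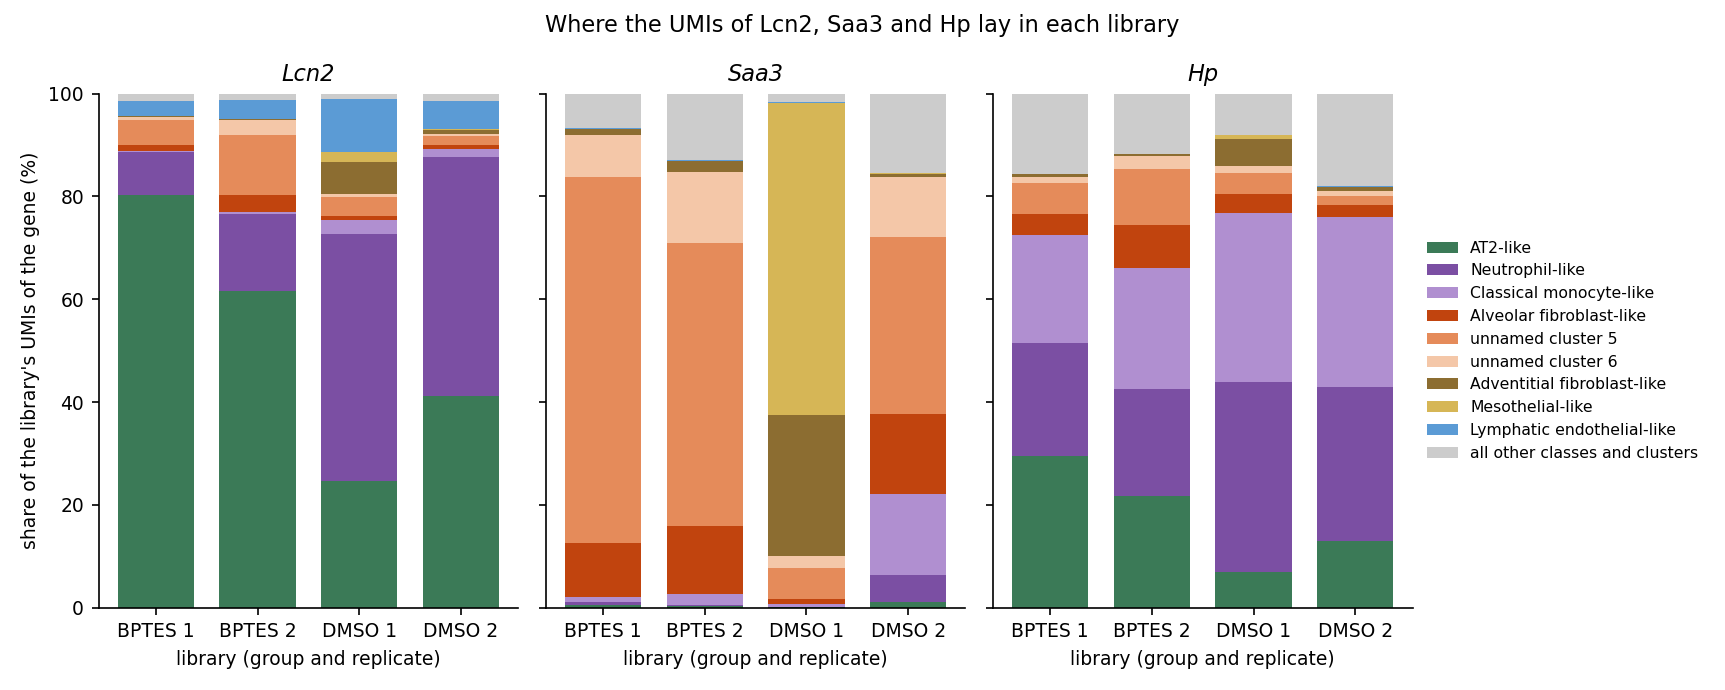
Stacked bars give the share (%) of each library's UMIs of Lcn2, Saa3 and Hp that lay in each cell class, for BPTES replicates 1 and 2 and DMSO replicates 1 and 2. Lcn2 lay mainly in AT2-like and neutrophil-like cells, Hp in neutrophil-like, classical monocyte-like and AT2-like cells, and Saa3 in unnamed cluster 5 in the BPTES libraries and in mesothelial-like cells in DMSO replicate 1 (60.6%).

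Saa3 had a different source. Unnamed cluster 5 held 71.2% and 55.1% of a library's Saa3 UMIs in BPTES and 6.07% and 34.4% in DMSO. Alveolar fibroblast-like cells held a further 10.6% and 13.2% in BPTES and 0.951% and 15.6% in DMSO. In DMSO replicate 1, most Saa3 lay elsewhere. The 228 mesothelial-like cells held 14222 UMIs (60.6% of the library's 23451 Saa3 UMIs), and adventitial fibroblast-like cells held 6426 UMIs. The name mesothelial-like, after the lining of the lung surface, is uncertain. In BPTES and then DMSO replicates, its 8 mesothelial markers summed to 835, 2898, 2776 and 5852 CPM. The 9 adventitial fibroblast markers in the same cells summed to 866, 3585, 11439 and 8653 CPM. The mesothelial-like cells of the other libraries held 0, 2 and 2 Saa3 UMIs in 5, 19 and 68 cells.

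This placement decides the level over whole libraries. Over all kept cells Saa3 stood at 26.7 and 49.0 CPM in BPTES and 101 and 8.25 CPM in DMSO, with the highest and the lowest library both in the DMSO group. In mesothelial-like cells, 58.3% of the cells of DMSO replicate 1 held Saa3 (95% exact binomial interval 51.6% to 64.8%), against 2 of 68 cells in DMSO replicate 2 (interval 0.358% to 10.2%). With 5 and 19 mesothelial-like cells in the BPTES libraries, no comparison of treatment was possible there. All intervals cover counting error only.

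Saa1 and Saa2 were rare. Saa1 had 267, 636, 69 and 280 UMIs in the 4 libraries, of which cluster 5 held 78.3%, 70.9%, 29.0% and 92.1%. Saa2 had 5, 106, 5 and 50 UMIs. In DMSO replicate 2, 220 of the 258 Saa1 UMIs of cluster 5 lay in 1 cell, and 47 of the library's 50 Saa2 UMIs lay in 1 cell of cluster 6. AT2-like cells held no Saa1 UMI in any library.

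Hp was spread over myeloid cells and epithelium. Neutrophil-like cells carried 1189, 1242, 1476 and 1354 CPM and classical monocyte-like cells 753, 837, 939 and 1019 CPM, with BPTES below DMSO in both. That order was shared by 10.2% and 27.8% of all genes fitted in these classes. AT2-like cells carried 775, 715, 531 and 645 CPM and ciliated-like cells 548, 547, 500.4 and 529 CPM, with BPTES above DMSO in both, as for 16.1% and 19.3% of all genes fitted there. Non-classical monocyte-like cells varied most between libraries among the myeloid classes with high Hp, at 307, 212, 239 and 441 CPM, and the groups overlapped. Club secretory-like cells had 1773, 1702, 1524 and 1846 CPM from 15 to 18 cells a library.

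Chil1 was close to a single-source gene. AT2-like cells held 96.7%, 96.7%, 87.0% and 93.1% of its UMIs, at 3522, 2967, 2535 and 2880 CPM. Club secretory-like cells, with 15 to 18 cells a library, had 202, 144, 99.8 and 79.5 CPM. Neutrophil-like cells had 91.8, 102, 155 and 128 CPM, and were the only fitted class in which both BPTES libraries lay below both DMSO libraries for Chil1. Of the 18 classes that could be fitted (50 or more cells per library), 13 had Chil1 higher in both BPTES libraries, 8 had Lcn2, 6 had Hp and 3 had Saa3 in that order, which 19.1% of all gene and class pairs shared. The opposite order, shared by 24.5% of pairs, was found in 1 class for Chil1, 3 for Lcn2, 2 for Hp and 1 for Saa3. Of the 13 classes with higher Chil1, all but AT2-like cells had means of 1.99 to 3.78 CPM over 4 libraries. The highest of these means was in B-like cells, which should lack Chil1. Of the 8 classes for Lcn2, B-like, T-like, general capillary endothelial-like, non-classical monocyte-like and NK-like cells had means of only 1.88 to 2.30 CPM.

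**Figure D2:**
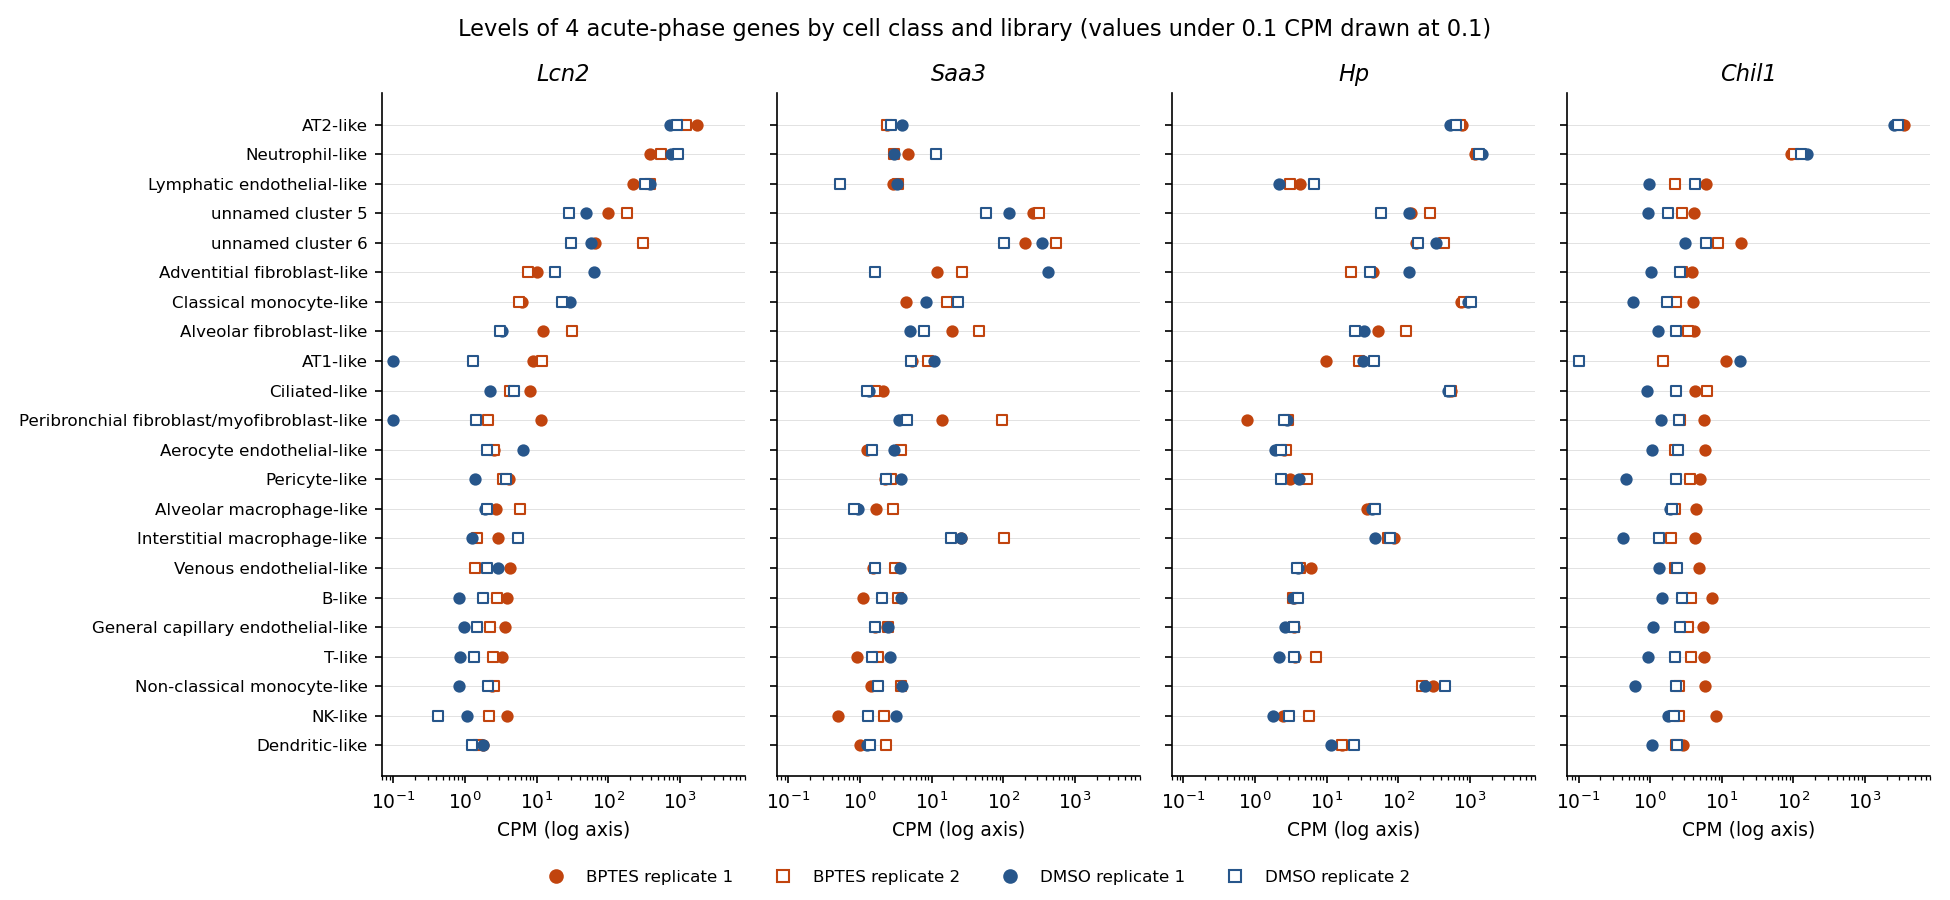
Each row is a cell class and each point a library, with the level of Lcn2, Saa3, Hp or Chil1 in CPM on a log axis (filled circles are replicate 1 and open squares replicate 2 of either group). Lcn2 and Chil1 were highest in AT2-like cells, Hp in neutrophil-like, classical monocyte-like, AT2-like and ciliated-like cells, and Saa3 in unnamed clusters 6 and 5, among groups of 20 or more cells per library (values under 0.1 CPM are drawn at 0.1).

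In alveolar fibroblast-like cells (1783, 1835, 2261 and 2462 cells), Lcn2, Saa3, Saa1, Hp and Chil1 were all higher in both BPTES libraries than in both DMSO libraries. Chil1 was at the background level there, with means of 3.73 CPM in BPTES and 1.78 CPM in DMSO. In B-like cells, which should lack it, the means were 5.44 and 2.13 CPM. The alveolar fibroblast-like cells carried the markers of the name in every library, with summed levels of the 9 alveolar fibroblast markers between 16028 and 16614 CPM. Lcn2 stood at 12.2 and 31.3 CPM in BPTES and 3.30 and 3.07 CPM in DMSO. Saa3 stood at 19.1 and 45.5 CPM in BPTES and 5.04 and 7.69 CPM in DMSO. BPTES replicate 2 was the highest library for both genes, and the DMSO libraries lay close together.

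Hp, the haemoglobin scavenger, stood at 51.2 and 128 CPM in BPTES and 33.3 and 24.9 CPM in DMSO. Saa1 had 44 and 69 UMIs in BPTES and 14 and 2 in DMSO, spread over 6, 6, 2 and 2 cells. Saa2 had 0, 43, 1 and 0 UMIs and did not pass the filter on low counts. A count of 0 in the 1783 cells of BPTES replicate 1 allows a share of cells with an Saa2 UMI of up to 0.168%, and a count of 0 in the 2462 cells of DMSO replicate 2 a share of up to 0.122%. The ordering of the 5 genes that were fitted, with both BPTES libraries above both DMSO libraries, was shared by 21.6% of the 16064 genes fitted in this class, and the genes had been chosen for it.

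The fitted log2 fold changes of BPTES over DMSO in alveolar fibroblast-like cells were 2.81 (SE 0.42) for Lcn2, 2.37 (SE 0.41) for Saa3 and 3.09 (SE 0.62) for Saa1. They were 1.67 (SE 0.39) for Hp and 1.08 (SE 0.29) for Chil1, which lay at the background level. The median of these values was 2.37, beside -0.0017 over all genes fitted, a difference that choosing the genes for this rise had set in advance. For Lcn2 the value fell to 1.95 without BPTES replicate 2 and reached 3.35 without BPTES replicate 1, so the size rests in part on BPTES replicate 2. Without cells holding 2 or more UMIs of Sftpc, S100a8, S100a9 or Msln, which mark AT2 cells, neutrophils and mesothelium, the Lcn2 value was 1.86 (SE 0.47) and the Saa3 value 1.95 (SE 0.57). That step removed 92.5% and 83.3% of the class in BPTES and 36.8% and 70.5% in DMSO, so few BPTES cells remained. Saa1 rested on few cells and ranged from 0.58 to 5.08 over the alternatives.

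Cluster 5 carried Lcn2, Saa3, Saa1 and Hp at higher mean levels. Mean Chil1 was not higher there, at 3.41 CPM in BPTES and 1.36 CPM in DMSO, against 3.73 and 1.78 CPM in alveolar fibroblast-like cells. Its Lcn2 levels were 100 and 182 CPM in BPTES and 48.7 and 28.6 CPM in DMSO, and its Saa3 levels were 260 and 317 CPM in BPTES and 122 and 57.4 CPM in DMSO. The groups did not overlap for either gene, an order that 20.8% of the 14370 genes fitted in cluster 5 shared. The log2 fold changes were 1.92 (SE 0.32) for Lcn2, 1.74 (SE 0.29) for Saa3 and 1.18 (SE 0.41) for Hp. Saa1 was at 11.1, 18.9, 1.71 and 17.7 CPM, and its groups overlapped.

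Cluster 5 also expressed the markers of both fibroblast types, at 9362 to 10675 CPM for the alveolar list and 1531 to 1660 CPM for the adventitial list. Timp1, an inhibitor of matrix metalloproteinases that led the cluster, was detected in 61.5% and 71.7% of the BPTES cells and 53.4% and 58% of the DMSO cells without Lcn2. Among cells with Lcn2, it was detected in 78.3%, 79.8%, 68.3% and 86.4%. In the shallow cluster 6, Lcn2 was at 64.7, 309, 57.6 and 30.1 CPM and Saa3 at 200, 536, 352 and 102 CPM, with overlapping groups for Saa3.

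**Figure D3:**
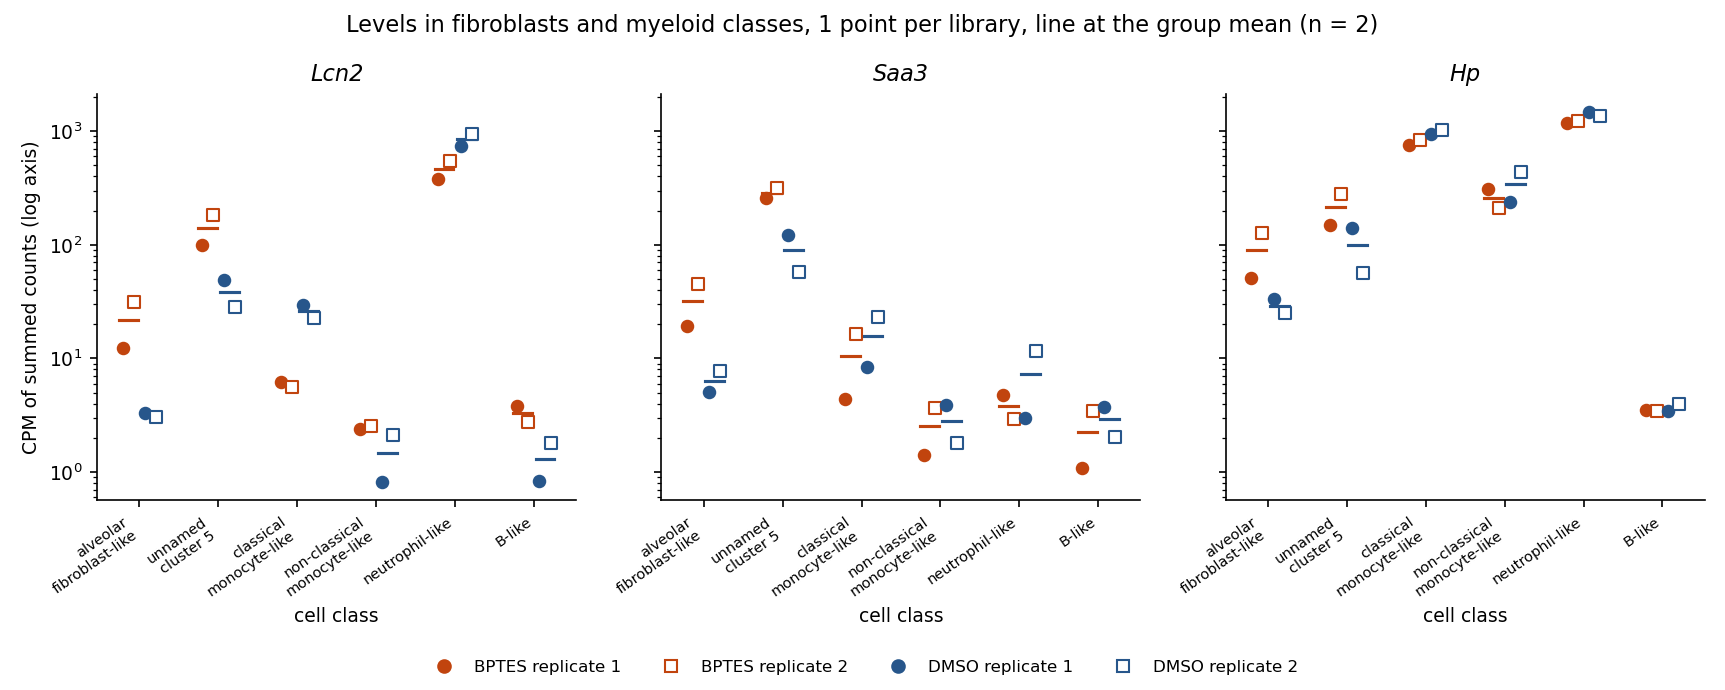
Points give the level of Lcn2, Saa3 and Hp in each library, in CPM on a log axis, in alveolar fibroblast-like cells, unnamed cluster 5, 3 myeloid classes and B-like cells, with a line at the mean of each group (n = 2). Both BPTES points lay above both DMSO points for all 3 genes in alveolar fibroblast-like cells and cluster 5, and below them for Lcn2 in classical monocyte-like and neutrophil-like cells.

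More alveolar fibroblast-like cells held Lcn2 in BPTES than in DMSO. At least 1 Lcn2 UMI was found in 153 of 1783 cells (8.58%, interval 7.32% to 9.98%) and 206 of 1835 cells (11.2%, 9.82% to 12.8%) in BPTES. In DMSO it was found in 79 of 2261 cells (3.49%, 2.78% to 4.34%) and 86 of 2462 cells (3.49%, 2.80% to 4.30%). At least 5 Lcn2 UMIs were found in 21 and 56 cells in BPTES and 6 and 5 cells in DMSO. After each cell was thinned to 3000 UMIs, which left out 12 to 28 shallower cells a library, the positive shares were 2.43% and 4.06% in BPTES and 0.761% and 0.698% in DMSO, in the same order.

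For Saa3 the shares of positive cells did not separate the groups. Its positive share was 6.95% and 8.72% in BPTES and 7.39% and 4.87% in DMSO, so the groups overlapped. Cells with at least 5 Saa3 UMIs numbered 11 and 28 in BPTES (0.617% and 1.53%) and 5 and 15 in DMSO (0.221% and 0.609%), so that BPTES replicate 1 lay next to DMSO replicate 2. The 2 richest cells held 52.8% of the Saa3 UMIs of this class in BPTES replicate 1 and 28.4% in BPTES replicate 2, and 1 cell of BPTES replicate 2 held 280. For Lcn2 the 2 richest cells held 17.1% to 21.5% in the 4 libraries. Without those cells the log2 fold change was 2.77 for Lcn2 and 2.08 for Saa3.

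B-like and T-like cells, which should lack these genes, set the background for positive shares. In B-like cells the Lcn2 share was 4.48%, 3.36%, 0.933% and 2.16%, at medians of 11211 to 11984 UMIs per cell, against 19426 to 21385 in alveolar fibroblast-like cells. No B-like or T-like cell held 5 or more UMIs of Lcn2 or Saa3 in any library. At 3000 UMIs per cell the Lcn2 share in B-like cells was 1.21%, 0.891%, 0.332% and 0.782%. Before and after thinning, the background share in B-like cells was thus also higher in both BPTES libraries than in both DMSO libraries. The thinned share in alveolar fibroblast-like cells of DMSO replicate 2 (0.698%) was below that of B-like cells in the same library, whereas the shares in DMSO replicate 1 and both BPTES libraries were above it.

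The Saa3 share in B-like cells was 1.40%, 4.0%, 4.31% and 2.54% before thinning, and the share in alveolar fibroblast-like cells exceeded it in every library. After thinning, the B-like share was 0.152%, 0.713%, 1.41% and 0.426%. In DMSO replicate 1, the thinned share of alveolar fibroblast-like cells was 1.43%, next to 1.41% in B-like cells, so single Saa3 UMIs in that library were at the background level.

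**Figure D4:**
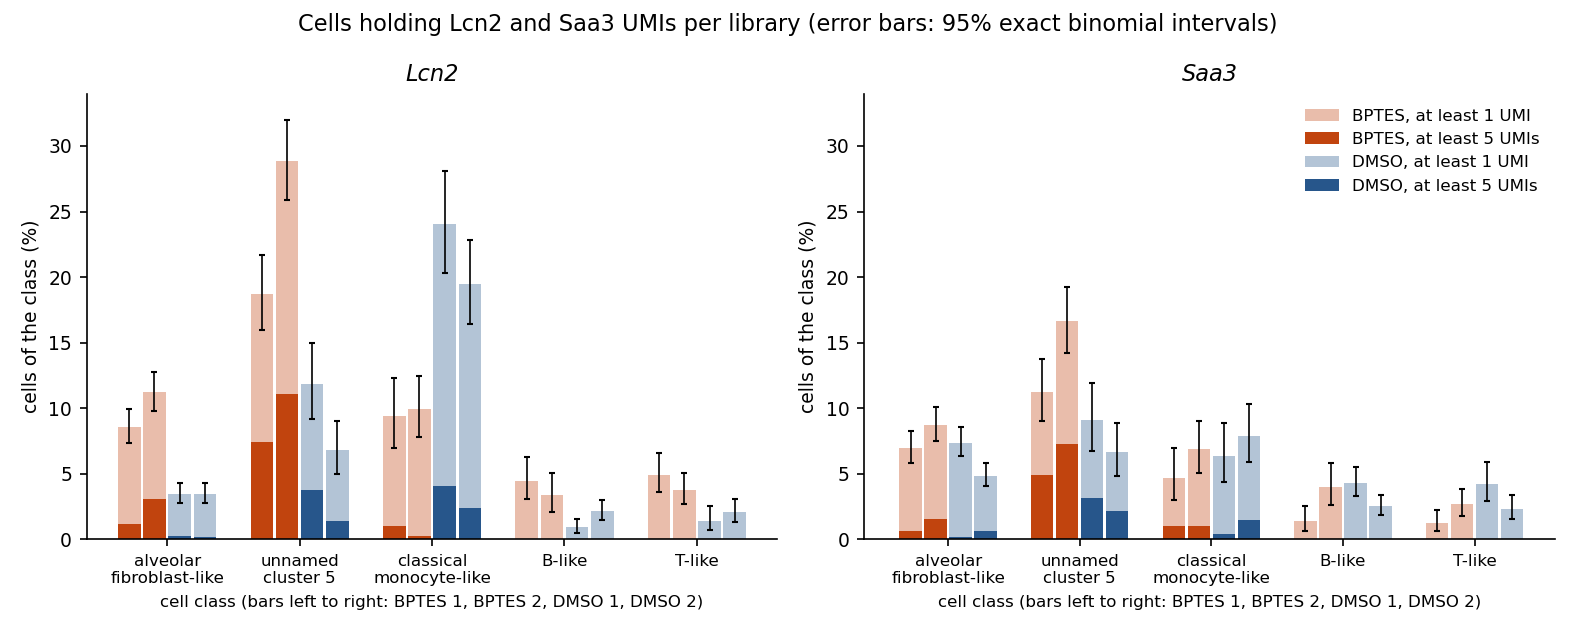
Pale bars give the percentage of cells with at least 1 UMI, with 95% exact binomial intervals, and dark bars the percentage with at least 5 UMIs, for Lcn2 and Saa3 in 5 groups of cells and 4 libraries. Cells with 5 or more UMIs were found in alveolar fibroblast-like cells, cluster 5 and classical monocyte-like cells and in no B-like or T-like cell.

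Lcn2 and Saa3 were found together in some cells. At 1 or more UMIs, Saa3 was held by 13.7% and 19.4% of the Lcn2-positive alveolar fibroblast-like cells in BPTES and by 6.33% and 15.1% in DMSO. Among the Lcn2-negative cells 6.32%, 7.37%, 7.42% and 4.50% held it, so DMSO replicate 1 had no higher share among Lcn2-positive cells. Of the alveolar fibroblast-like cells with at least 5 Lcn2 UMIs, 7 of 21 in BPTES replicate 1 (33.3%, interval 14.6% to 57%) and 15 of 56 in BPTES replicate 2 (26.8%, 15.8% to 40.3%) held at least 2 Saa3 UMIs. Among the other cells of those libraries, 1.02% and 1.63% did. In DMSO, 0 of 6 and 1 of 5 such cells held at least 2 Saa3 UMIs. In cluster 5 the counts were 29 of 55, 43 of 99, 7 of 19 and 2 of 9, against 2.34%, 4.55%, 2.46% and 2.82% of the other cells.

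Hp was found in the same cells as well: 12 of 21 and 32 of 56 of the Lcn2-rich alveolar fibroblast-like cells of the BPTES libraries held at least 2 Hp UMIs, against 10.4% and 15.7% of the other cells. Sftpc, the surfactant protein C gene that marks AT2 cells, was present at 2 or more UMIs in 21 of 21 and 49 of 56 of these Lcn2-rich cells and in 92.3% and 82.8% of the others. S100a8, a neutrophil gene, was present at 2 or more UMIs in 1 of 21 and 2 of 56, against 1.02% and 1.85%. The Lcn2-rich cells had medians of 23532 and 26640 UMIs, against 21058 and 21385 in the class, and the part of depth in the overlap was not tested.

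In classical monocyte-like cells, the blood-derived monocytes of the Ly6c-high type, Lcn2 was lower in both BPTES libraries. Its levels were 6.18 and 5.66 CPM in BPTES (80 and 98 UMIs) and 29.3 and 22.8 CPM in DMSO (412 and 374 UMIs). Positive cells made up 9.39% and 9.96% of the class in BPTES and 24% and 19.5% in DMSO, and cells with at least 5 UMIs numbered 5 and 2 against 20 and 15. The groups did not overlap, an order with BPTES below that 27.8% of the 12213 genes fitted in this class shared. The fitted log2 fold change was -2.11 (SE 0.17), with values from -3.22 to -1.72 over the alternatives. The 2 richest cells held 16.3% to 19.8% of the Lcn2 UMIs in the 4 libraries.

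S100a8 was lower in BPTES as well in these monocytes, at 19.5, 13.2, 32.7 and 27.6 CPM. The summed level of the 8 neutrophil markers in classical monocyte-like cells was 316 to 319 CPM in BPTES and 379 to 385 CPM in DMSO, and Ly6g, which defines neutrophils, was at 0 in BPTES replicate 2 and DMSO replicate 1. The part of neutrophil RNA in the Lcn2 difference was not tested. Leaving out cells with 2 or more UMIs of other cells' markers gave a log2 fold change of -3.22. It removed 91.4% and 86.2% of classical monocyte-like cells in BPTES and 51.5% and 79.9% in DMSO. Because those markers include Sftpc and Msln, the step cannot single out neutrophil RNA.

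Neutrophil-like cells had Lcn2 at 378 and 548 CPM in BPTES and 748 and 944 CPM in DMSO, with positive shares of 63.5%, 73.4%, 78.0% and 81.3%. The groups did not overlap, as for 10.2% of the 11722 genes fitted in this class. The log2 fold change was -0.98 (SE 0.18) for Lcn2, -0.67 (SE 0.15) for Chil1 and -0.34 (SE 0.14) for Hp. The summed level of the 8 neutrophil markers was likewise lower in BPTES, at 51844 and 54694 CPM against 79814 and 70680 CPM, so the lower values of the 3 genes went with lower levels of the class's own markers. Hp in classical monocyte-like cells had a log2 fold change of -0.27 (SE 0.08).

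Lcn2 was at 2.37, 2.53, 0.819 and 2.12 CPM in non-classical monocyte-like cells and did not fall in BPTES. Interstitial macrophage-like cells had 2.85, 1.47, 1.24 and 5.46 CPM, with overlapping groups. B-like cells ranged from 0.825 to 3.82 CPM and T-like cells from 0.860 to 3.25 CPM, so the 5.46 CPM, from 25 UMIs, lay above these classes. It lay below the 6.47 CPM of aerocyte endothelial-like cells in DMSO replicate 1. Means in BPTES and DMSO were 4.26 and 1.96 CPM in alveolar macrophage-like cells and 1.64 and 1.51 CPM in dendritic-like cells. Among the myeloid classes, both BPTES libraries thus lay below both DMSO libraries for Lcn2 only in classical monocyte-like and neutrophil-like cells. Saa3 in interstitial macrophage-like cells was at 25.3, 102, 26.0 and 18.6 CPM, and 1 cell of BPTES replicate 2 held 703 of its library's 1048 UMIs there. Without BPTES replicate 2 the log2 fold change of Saa3 in that class was 0.21, against 1.59 (SE 0.63) with it.

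RNA of these genes was also found at low levels in classes that do not make them, and that background differed between libraries. In B-like cells Chil1 was at 7.20 and 3.68 CPM in BPTES and 1.47 and 2.78 CPM in DMSO, and Sftpc was at 305, 231, 83.5 and 175 CPM in the same order. Chil1 stood at 2.36, 1.59, 1.76 and 1.59 UMIs per 100 Sftpc UMIs in B-like cells, and at 2.09, 1.80, 1.54 and 1.70 in AT2-like cells. In alveolar fibroblast-like cells this ratio was 1.84, 2.10, 2.13 and 1.82. In classical monocyte-like cells it was 2.11, 1.52, 1.22 and 1.58, the third of these from 8 Chil1 UMIs. The ratios in these classes thus ranged from 1.22 to 2.36, around the 1.54 to 2.09 of AT2-like cells.

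Lcn2 kept such a ratio in some classes and not in others. Per 100 Sftpc UMIs, B-like cells held 1.25, 1.19, 0.988 and 1.03 Lcn2 UMIs, T-like cells 1.20, 1.25, 1.35 and 0.919, and general capillary endothelial-like cells 1.20, 1.11, 1.28 and 0.886. AT2-like cells themselves held 1.04, 0.741, 0.442 and 0.545. Alveolar fibroblast-like cells held 5.55 and 19.3 in BPTES and 5.46 and 2.45 in DMSO, and cluster 5 held 48.8, 120, 82.8 and 23.5. Classical monocyte-like cells held 3.25 and 3.74 in BPTES and 62.6 and 21.0 in DMSO.

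In alveolar fibroblast-like and classical monocyte-like cells Lcn2 thus exceeded the ratio seen in B-like and T-like cells in all 4 libraries. The background from AT2 cells was higher in BPTES, and that from neutrophils was lower. At least 2 UMIs of Sftpc, S100a8, S100a9 or Msln were found in 92.5% and 83.3% of alveolar fibroblast-like cells in BPTES and in 36.8% and 70.5% in DMSO. Summed AT2 markers in alveolar fibroblast-like cells were 286 and 213 CPM in BPTES and 88.1 and 163 CPM in DMSO, with all 8 markers detected, while summed neutrophil markers were 22.8 and 26.9 CPM in BPTES and 41.8 and 36.5 CPM in DMSO. The 8 mesothelial markers summed to 251 and 240 CPM in BPTES and 229 and 252 CPM in DMSO in this class. Of the 8, 6 were detected in each BPTES library, with Msln at 0 in both, and all 8 in each DMSO library. With Chil1 in place of Sftpc, alveolar fibroblast-like cells held 302 and 918 Lcn2 UMIs per 100 Chil1 UMIs in BPTES and 256 and 135 in DMSO, against 53.0, 75.0, 56.0 and 64.9 in B-like cells.

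**Figure D5:**
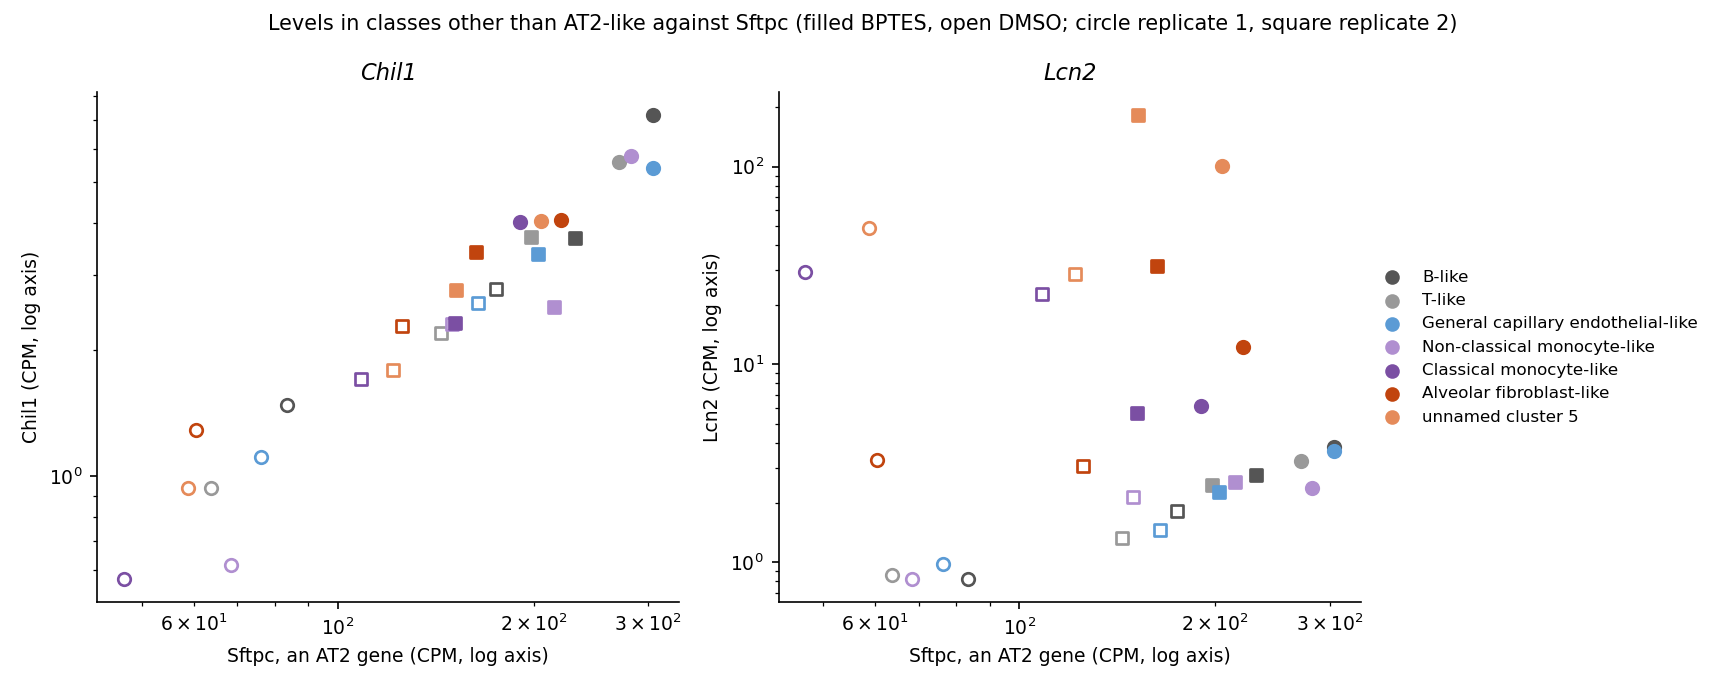
Each point is 1 class in 1 library, with Sftpc on the x axis and Chil1 (left) or Lcn2 (right) on the y axis, both in CPM on log axes; filled points are BPTES, open points DMSO, circles replicate 1 and squares replicate 2. Chil1 was higher where Sftpc was higher across the classes shown, whereas Lcn2 did so in B-like, T-like, capillary and non-classical monocyte-like cells and lay above that trend in alveolar fibroblast-like cells, cluster 5 and classical monocyte-like cells.

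A test was made in the fitted classes other than alveolar fibroblast-like, monocyte-like, neutrophil-like and interstitial macrophage-like cells. Dendritic-like cells were included although they are myeloid, so their Lcn2 test was not free of the choice of genes. In the 12 classes tested, 43 tests of these genes could be made, while in NK-like cells none of the genes passed the low-count filter. Of the 43, edgeR's quasi-likelihood test called 0 at an adjusted p under 0.05, where 0.0618% of all gene and class pairs were called. At an unadjusted p under 0.05 there were 14, against 11.3% of all pairs. They included Lcn2 and Chil1 in B-like, T-like and general capillary endothelial-like cells, where both genes lay at the background level. Chil1 in ciliated-like cells was also among the 14, with 14 and 34 UMIs in BPTES and 2 and 9 in DMSO. It passed the low-count filter only through its BPTES libraries, as Chil1 in pericyte-like cells did among the 43, so these tests cannot be read as evidence of a rise. DESeq2 called 3, against 0.586% of all pairs: Hp in AT2-like cells, and Lcn2 and Chil1 in general capillary endothelial-like cells, where both genes lay at the background level.

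AT2-like cells came closest with Lcn2, whose log2 fold change was 0.89 (SE 0.17, edgeR adjusted p = 0.108), from 0.62 without BPTES replicate 1 to 1.13 without BPTES replicate 2. Hp (0.39, SE 0.11, adjusted p = 0.180) and Chil1 (0.31, SE 0.11, adjusted p = 0.248) had their BPTES libraries above both DMSO libraries too, an order that 16.1% of genes in this class shared. None of these passed edgeR's threshold. Saa3 in AT2-like cells, at 2.38, 2.35, 3.79 and 2.67 CPM, was at the background level.

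Adventitial fibroblast-like cells, which surround airways and vessels, went the other way. Lcn2 was at 10.3 and 7.56 CPM in BPTES and 62.9 and 17.9 CPM in DMSO (log2 fold change -2.22, SE 0.59, edgeR adjusted p = 0.293), with both BPTES libraries lower, as for 25.2% of genes there. The value was -1.0 without DMSO replicate 1 and 0.54 at a coarser clustering resolution. Saa3 was at 12.0, 26.3, 416 and 1.60 CPM, with its 4 libraries spread over the whole range and 1 cell of DMSO replicate 1 holding 1969 UMIs. The log2 fold change of Saa3 was -3.39 (SE 1.70, edgeR adjusted p = 0.499) and turned to 3.64 without DMSO replicate 1. In that class the summed mesothelial markers were 63.3 and 61.3 CPM in BPTES and 220 and 255 CPM in DMSO, with Lrrn4 at 0 in all 4 libraries, and their part in these differences was not tested.

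In peribronchial fibroblast or myofibroblast-like cells, Saa3 was the only one of the 6 genes that passed the low-count filter. It was at 14.1, 94.7, 3.49 and 4.54 CPM, with both BPTES libraries higher, as for 18.9% of genes there (log2 fold change 3.81, SE 0.80, edgeR adjusted p = 0.222). The 2 richest cells held 73.0% and 77.6% of its UMIs in BPTES. Lymphatic endothelial-like Lcn2 had a log2 fold change of -0.22 (SE 0.19, edgeR adjusted p = 0.701).

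The wider acute-phase pathway was read from a list of 72 genes, all measured: 10 inducing cytokines, 10 receptors, 13 transcription factors and regulators, 29 other acute-phase proteins, and 10 receptors or partners of the 6 products. Over the 18 fitted classes, 779 tests were made and edgeR called 6, where 0.113% of all gene and class pairs were called. In alveolar fibroblast-like cells 53 of the 72 genes were tested and edgeR called 0, where 0.0436% of genes were called. There, 17 had an unadjusted p under 0.05, against 18.4% of genes, and DESeq2 called 6, 4 higher and 2 lower, against 2.83% of genes.

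By role, the list genes in alveolar fibroblast-like cells had medians on both sides of 0. The median log2 fold change was -0.26 over 6 inducing cytokines, 0.04 over 9 receptors, -0.05 over 13 transcription factors and regulators, 0.39 over 18 other acute-phase proteins, and -0.15 over 7 receptors or partners. Il6, the main inducer, was at 127 and 134 CPM in BPTES and 155 and 166 CPM in DMSO, on the TMM-scaled counts used for this list. Socs3, a feedback inhibitor that STAT3 switches on, was at 222, 256, 265 and 299 CPM. C3, the central complement protein, was at 581, 645, 463 and 476 CPM, and Timp1 at 18.2, 15.7, 11.2 and 11.6 CPM. None of these 4 genes, which were picked after their values were seen, passed edgeR's threshold.

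The 6 calls lay in 3 classes. In interstitial macrophage-like cells, where 1.2% of genes were called, the cytokine gene Osm (oncostatin M) rose by 0.77 (SE 0.11, edgeR adjusted p = 0.035) and Cd36, a scavenger receptor that binds serum amyloid A, rose by 0.64 (SE 0.09, edgeR adjusted p = 0.0321). Tnf fell by 0.81 (SE 0.13, edgeR adjusted p = 0.0467) and the receptor gene Tlr2 fell by 0.59 (SE 0.10, edgeR adjusted p = 0.0454), all on the log2 scale. Without BPTES replicate 1 there were 0 calls in place of 4, and 2 without either DMSO library. There were also 0 at resolution 0.5, at both other mitochondrial limits and with the 6 genes left out of clustering. In the same class the 9 interstitial macrophage markers summed to 6425 and 6313 CPM in BPTES and 8117 and 8851 CPM in DMSO. The 8 classical monocyte markers, with none at 0, summed to 2729 and 2774 CPM in BPTES and 1675 and 1832 CPM in DMSO, and their part in the 4 calls was not tested. Elsewhere, and picked after their values were seen, Socs3 fell by 0.97 (SE 0.10, edgeR adjusted p = 0.0379) in AT2-like cells, at 189 and 186 CPM in BPTES against 404 and 333 CPM in DMSO, where 0.0229% of genes were called. Nfkbiz, a nuclear regulator of NF-kB targets, fell by 0.48 (SE 0.07, edgeR adjusted p = 0.0285) in aerocyte endothelial-like cells, where 0.19% were called. In classical monocyte-like cells 46 list genes were tested and edgeR called 0, against 0.0164% of genes, with 17 at an unadjusted p under 0.05 (15.4% of genes) and 5 called by DESeq2 (1.76% of genes).

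Across the 20 named classes, the genes whose log2(CPM + 1) followed Lcn2, Saa3, Hp and Chil1 most closely, among 14002 genes, were read as a description. Saa1 and Saa2 were too low to be compared. For Lcn2 these were Chil1 (Pearson r = 0.773), Tgoln1 (0.710) and Tmem132d (0.697), all highest in AT2-like cells. For Saa3 they were Pigz (0.867), Eya4 (0.865) and C4b (0.830), all highest in adventitial fibroblast-like cells. For Hp they were Pgd (0.878), Ugt1a6a (0.860) and Vnn3 (0.860), highest in alveolar macrophage-like, ciliated-like and neutrophil-like cells. For Chil1 they were A330093E20Rik (0.965), Slco4c1 (0.925) and S100g (0.910), all highest in AT2-like cells. The classes share libraries and their background RNA, so these points are not independent.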

How the data were processed

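Each library came as 1 deposited matrix of UMI counts per gene and filtered barcode (GEM-X 3' chemistry, per the labels' protocols), made with Cell Ranger 8.0.1 on mm10, per the submitters' processing notes. They were used as deposited. Kept barcodes had 500 or more genes, 1000 or more UMIs and mitochondrial UMIs of 10% or less, and the highest-scoring simulated-doublet neighbours (0.4% per 1000 barcodes) were removed. Counts scaled to 10000 per cell and logged gave 2000 variable genes, 40 components, 15 exact neighbours and Leiden clusters (igraph 0.11.9, resolution 1). A cluster took a class name at a mean marker z-score of at least 1.5, with at least 3 markers in at least 10% of cells, unless its 10 leading genes held as many markers of another class or its cells were shallow. These naming thresholds were set after clusters had been seen.

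Counts were summed per library and class. Levels are CPM of those sums, and TMM scaling changed them by a factor of 0.959 to 1.09. Classes of 50 or more cells per library were fitted with edgeR 4.0.16 in R 4.3.3 (TMM, filterByExpr, quasi-likelihood test, group as the only term, Benjamini-Hochberg adjustment over all genes of the class, two-sided, threshold 0.05). DESeq2 1.42.0 was an alternative. A log2 fold change compares BPTES with DMSO and carries an approximate SE. The fits were tested on simulated data first. Library totals of 260346570 to 342107092 UMIs over all barcodes set the precision, and intervals are 95% exact binomial. A count of 0 allows up to 3 counts.

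The 6 genes, the 72-gene list and the markers were chosen with earlier results of these data known. Named are the 6 genes, list genes called in fibroblast or myeloid classes, the 3 genes most like each with at least 10 CPM in a class, and Sftpc, S100a8 and Msln. Saa1 and Saa2 fell under that level or were too sparse. Il6, Socs3, C3, Timp1 and Nfkbiz fell outside this naming rule and were picked after their values were seen. Alternatives covered normalisation, tool, filter, replicate block, leaving out each library, mitochondrial limits of 5% and 20%, doublets kept, resolutions 0.5 and 2, seeds 1 and 2, clustering without the 6 genes, removal of the 2 richest cells, and removal of cells with other cells' markers. Naming by score alone, cluster 5, a crossed pairing and Chil1 as reference were added after seeing the data. A protein comparison was not run.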

Additional observations from a re-analysis of the deposited data

Results flagged for a closer look

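Lcn2 moved in opposite directions in different classes, with the libraries of the groups not overlapping in each. Its log2 fold change of BPTES over DMSO was 2.81 in alveolar fibroblast-like and 0.89 in AT2-like cells, against -2.11 in classical monocyte-like, -0.98 in neutrophil-like and -2.22 in adventitial fibroblast-like cells. The same order of the groups was shared by 21.6%, 16.1%, 27.8%, 10.2% and 25.2% of genes in these classes, as listed. The alveolar fibroblast and myeloid differences had been used to choose the genes. At resolution 0.5 the adventitial fibroblast-like value turned to 0.54. Hp also had groups that did not overlap, with 1.67 in alveolar fibroblast-like, 0.39 in AT2-like and 0.088 in ciliated-like cells. Against these stood -0.34 in neutrophil-like and -0.27 in classical monocyte-like cells. The ciliated-like value had an SE of 0.071 (edgeR adjusted p = 0.795), and 19.3% of genes there shared its order. Chil1 had 0.31 in AT2-like and -0.67 in neutrophil-like cells. The difference between classes was not tested in any of these cases, and the classes were compared within the same 4 libraries.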

How the results depend on the processing

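In alveolar fibroblast-like cells, Lcn2 (2.81) kept its direction in 19 of 19 alternatives. It ranged from 1.95 to 3.35 when 1 library was left out, and was 1.86 without cells holding other cells' markers. Saa3 there (2.37) kept its direction in 19 of 19. It ranged from 1.59 to 2.88 with 1 library left out, and was 1.83 at resolution 2, 1.72 with doublets kept and 1.95 without cells holding other cells' markers. Lcn2 in classical monocyte-like cells (-2.11) kept its direction in 19 of 19. It ranged from -2.29 to -1.91 with 1 library left out, and was -1.72 with doublets kept and -3.22 without cells holding other cells' markers. With the replicate block these 3 values were 2.69, 2.30 and -2.10. The causes were not tested. Of 35 other fold changes of the 6 genes, 20 kept their direction in all alternatives, and 24 of 598 alternatives had the other direction.

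Counts of called genes depended more on the settings. The count was 7 in alveolar fibroblast-like cells (0 with doublets kept, 595 without DMSO replicate 2), 2 in classical monocyte-like (0 with the replicate block, 846 with no filter) and 145 in interstitial macrophage-like cells (15 at resolution 0.5, 1279 with no filter). With the replicate block the counts in these classes were 4, 0 and 393. For the 72-gene list, the count of 0 in alveolar fibroblast-like cells reached 6 with DESeq2, and that of 4 in interstitial macrophage-like cells ranged from 0 to 17. Same-numbered libraries correlated at -0.187 to 0.0769 over 19 groups of cells, so the numbers were not taken as pairs. Crossing the numbers, an alternative chosen after seeing the data, gave 131 calls in non-classical monocyte-like and 166 in neutrophil-like cells. Saa1, Saa2 and values under about 5 CPM were limited by few UMIs and by the background.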
